A study of Homo sapiens with 4 samples.

Results

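Genes of the FGF, PDGF, WNT, BMP/TGF-beta and Notch signalling families were followed in maps of histone H4 lysine 5 lactylation (H4K5la), a histone acylation that draws on lactate. They were chosen by gene symbol alone: protein-coding genes named as an FGF, FGF receptor, PDGF, PDGF receptor, WNT, Frizzled, BMP, TGFB, NOTCH, JAG, DLL or HES gene, 92 of 20037 protein-coding genes. The maps come from SH-SY5Y, a human neuroblastoma line, either wild type (WT) or with the co-chaperone gene DNAJC12 knocked out (DNAJC12KO). Each genotype had 1 library precipitated with an H4K5la antibody and 1 input library, 4 libraries in all, and no treatment is named for any of them. How the knockout was made, and whether it is 1 clone, is not given in the sources used here. One peak list per genotype was analysed, and a gene is called marked below when a peak reached its gene record, or the 3 kb on either side of it, by at least 1 bp.

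These genes encode the main secreted signals of embryonic patterning and their receivers. FGFs and PDGFs activate receptor tyrosine kinases. WNTs act through Frizzled receptors and beta-catenin, BMPs and TGF-betas through serine/threonine kinase receptors and SMAD proteins. Notch receptors are activated by Delta and Jagged ligands on neighbouring cells, are cleaved, and switch on HES repressors together with the DNA-binding protein RBPJ. In the neural crest, the origin of sympathetic neurons and of neuroblastoma, these pathways steer migration, proliferation and the choice between neuron and glia. The symbol rule also takes in genes of a different nature: BMP1 is a procollagen-cleaving metalloprotease, BMP2K a protein kinase, and FGF11 to FGF14 act inside the cell.

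With 1 library per genotype, no difference between genotypes has a replicate check, and none was tested. Fold (a linear enrichment over background) and -log10 q are the authors' values per peak and rank peaks within a list only. The lists hold 1937 WT and 2743 DNAJC12KO peaks on the assembled chromosomes and no read counts, so the depth of the libraries is unknown. A place without a peak is a place below the authors' threshold (the lowest -log10 q is 1.03 for WT and 1.01 for DNAJC12KO). Binding of a histone mark does not report expression, so the cell line's identity could not be checked. Of 13 noradrenergic identity genes, DBH carried a WT peak and TH a DNAJC12KO peak (7.69% in each list). Over all protein-coding genes the shares were 6.46% (WT) and 8.23% (DNAJC12KO). Of 12 mesenchymal, glial and blood cell markers 0 carried a peak in either list, where 11.8% of all protein-coding genes did. These marker lists are too short to be set apart from all genes.

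Of the 92 signalling genes, 15 carried a peak in at least 1 list (16.3%, beside 11.8% of all protein-coding genes), and they came from 8 of the 11 families. The WT list marked 9 genes (9.78%, exact binomial 95% interval 4.57 to 17.8%), beside 6.46% of all protein-coding genes. The DNAJC12KO list marked 12 (13.04%, interval 6.93 to 21.7%), beside 8.23% of all protein-coding genes. Both intervals hold the share of all genes. They cover counting error only and treat genes as independent, which neighbouring genes are not.

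Marked in both lists were FGF22, WNT3A, WNT9A, BMP1, NOTCH1 and JAG2, that is 6 of 92 genes (6.52%, interval 2.43 to 13.7%), beside 2.92% of all protein-coding genes. The WT list alone marked FGF17, PDGFA and BMP8A (3 of 92 genes, beside 3.54% of all genes). The DNAJC12KO list alone marked FGF8, FGFR3, WNT3, WNT7B, WNT9B and HES5 (6 of 92 genes, beside 5.31% of all genes). The order of the lists depended on peak strength. When a peak had to reach a fold of 4, the WT list marked 7 of the 92 signalling genes and the DNAJC12KO list 4 of 92. The shares of all protein-coding genes were 2.39% and 1.94%, which are in the same order. When the -log10 q of a peak had to reach 2, the lists marked 4 of 92 (WT) and 2 of 92 (DNAJC12KO), beside 0.933% and 1.08% of all genes. A common limit need not be equally strict in both lists.

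**Figure D1:**
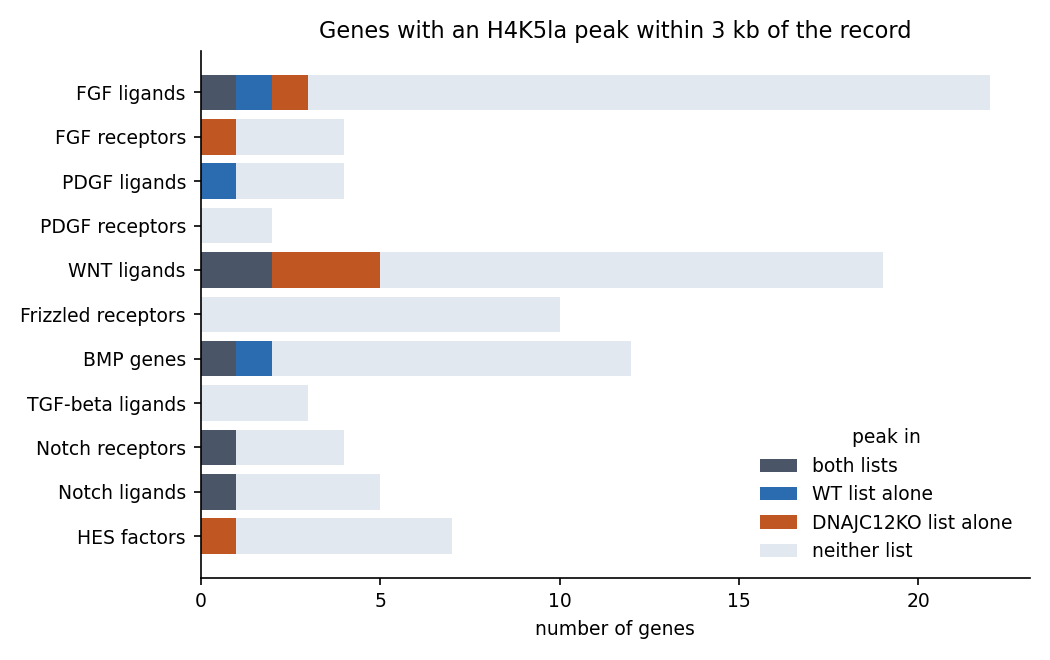
Number of genes in each signalling family (horizontal axis), split by whether an H4K5la peak overlapped the gene record or 3 kb around it in both lists, in the WT list alone, in the DNAJC12KO list alone or in neither. WNT ligands held the most marked genes (5 of 19, 26.3%, beside 11.8% of all protein-coding genes). The 10 Frizzled receptors, 3 TGF-beta ligands and 2 PDGF receptors held none, and are too few to be set apart from that 11.8%.

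The signalling genes together held 11 WT and 22 DNAJC12KO peaks in 5.80 Mb of gene records and flanks. That is 1.90 WT and 3.79 DNAJC12KO peaks per Mb, beside 1.24 and 1.65 per Mb over all protein-coding genes. Every gene had 1 to 3 peaks in a list that marked it. All were short: the widths ran from 279 to 707 bp in the WT list and from 293 to 888 bp in the DNAJC12KO list. The WT peaks at signalling genes had a median fold of 4.27, beside 3.82 over the whole WT list. The DNAJC12KO peaks had a median fold of 3.71, beside 3.69 over the whole DNAJC12KO list.

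**Figure D2:**
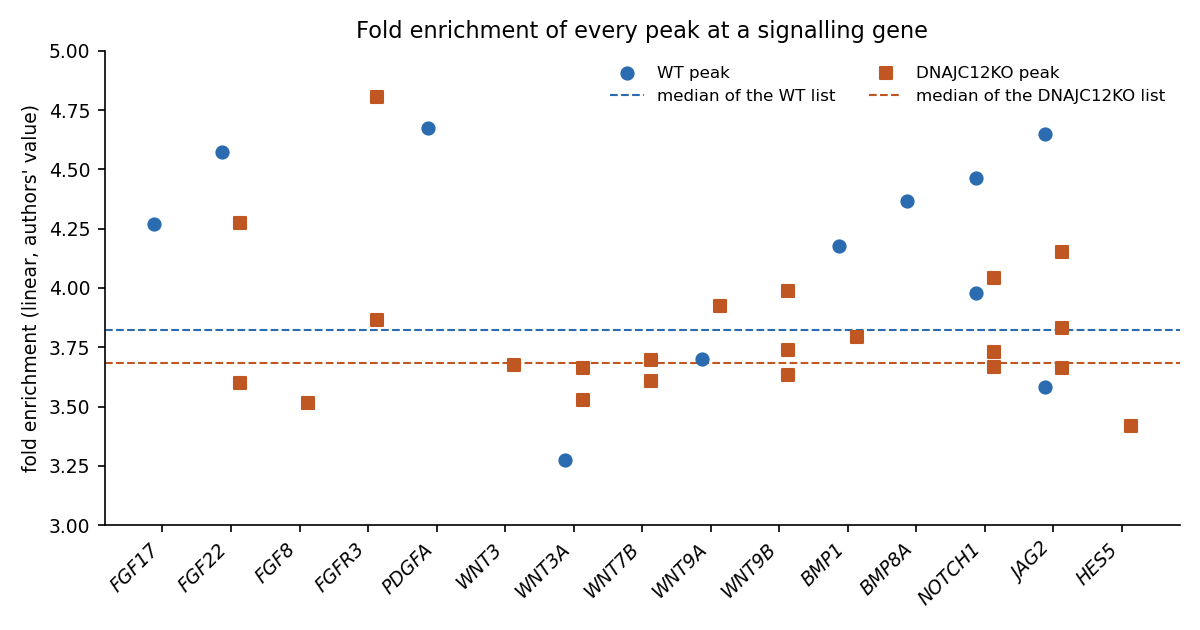
Fold enrichment of each peak (vertical axis, linear, the authors' value, axis from 3 to 5) at the 15 marked signalling genes, with WT peaks as circles and DNAJC12KO peaks as squares; dashed lines are the medians over the whole lists (3.82 and 3.69). The highest values are the FGFR3 peak of the DNAJC12KO list (4.81) and the PDGFA peak of the WT list (4.67).

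No peak was found on a listed transcription start, which was also rare over all genes. Of the 33 peaks, 28 overlapped the gene record and 5 lay in the flanks. RefSeq promoter windows, which run from 250 bases before a start to 50 after it, were at hand for 67 of the 92 genes. None of these 67 genes had a peak on such a window in either list, which allows a share of up to 4.48%. Over all 15843 protein-coding genes with a window the share was 0.139% (WT) and 0.246% (DNAJC12KO). The peaks of FGF17, FGF8, WNT7B and BMP1 could not be placed against a start. For the other 27 peaks, the distance from start to peak had a median of 12.8 kb and ran from 1.87 to 39.7 kb. Of these, 25 lay downstream of the start and 2 upstream.

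The starts of FGF17, FGF8, WNT7B and BMP1 are not listed, so a peak close to them could not be seen. Among the listed starts of marked genes, those nearest to a peak belonged to FGF22, PDGFA and HES5, the only ones within 3 kb of a peak. The 250 bases before each of these starts are shown to let the base composition next to the peaks be seen. They were taken from the RefSeq table of GRCh38.p14 and are written 5′ to 3′ on the strand of the gene, with each CG dinucleotide in capitals. The peaks themselves lie outside these windows, and their sequence was not used here. The windows are chr19:639629-639878 (FGF22, plus strand), chr7:520701-520950 (PDGFA, minus strand) and chr1:2530264-2530513 (HES5, minus strand).
FGF22: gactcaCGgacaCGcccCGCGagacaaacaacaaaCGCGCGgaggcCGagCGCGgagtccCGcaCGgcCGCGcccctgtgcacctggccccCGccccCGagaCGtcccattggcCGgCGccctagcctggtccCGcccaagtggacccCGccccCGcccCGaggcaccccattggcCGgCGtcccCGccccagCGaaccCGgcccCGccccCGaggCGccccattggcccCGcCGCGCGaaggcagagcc
PDGFA: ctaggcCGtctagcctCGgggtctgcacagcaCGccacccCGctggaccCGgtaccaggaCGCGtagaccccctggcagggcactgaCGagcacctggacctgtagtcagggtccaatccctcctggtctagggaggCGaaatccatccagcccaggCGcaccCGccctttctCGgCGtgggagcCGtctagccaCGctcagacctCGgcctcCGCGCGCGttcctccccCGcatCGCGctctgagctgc
HES5: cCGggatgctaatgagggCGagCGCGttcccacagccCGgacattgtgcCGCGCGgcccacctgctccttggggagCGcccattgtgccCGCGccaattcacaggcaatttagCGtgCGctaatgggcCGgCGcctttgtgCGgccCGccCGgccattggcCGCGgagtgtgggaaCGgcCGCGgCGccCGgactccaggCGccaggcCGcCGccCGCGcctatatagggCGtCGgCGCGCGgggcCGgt
They held 35, 23 and 36 CG dinucleotides, and 78.0%, 68.8% and 72.8% of their bases were G or C.

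Marked signalling genes as a set had CG-rich starts when the richest window of each gene was taken. That window need not be the one nearest a peak: the PDGFA window shown above held 23 CG dinucleotides. The 11 marked signalling genes with a window had a median of 36 CG dinucleotides in the 250 bases (range 26 to 44). The 56 unmarked ones with a window had a median of 23 (range 0 to 42). Over all protein-coding genes the medians were 25 for marked and 19 for unmarked genes. In G and C content, again of the richest window, the medians were 81.2% for marked and 68.6% for unmarked signalling genes. For all genes they were 70.4% and 63.2%. The ranges of marked and unmarked genes overlapped. Whether base composition had a part in where peaks were called was not tested.

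**Figure D3:**
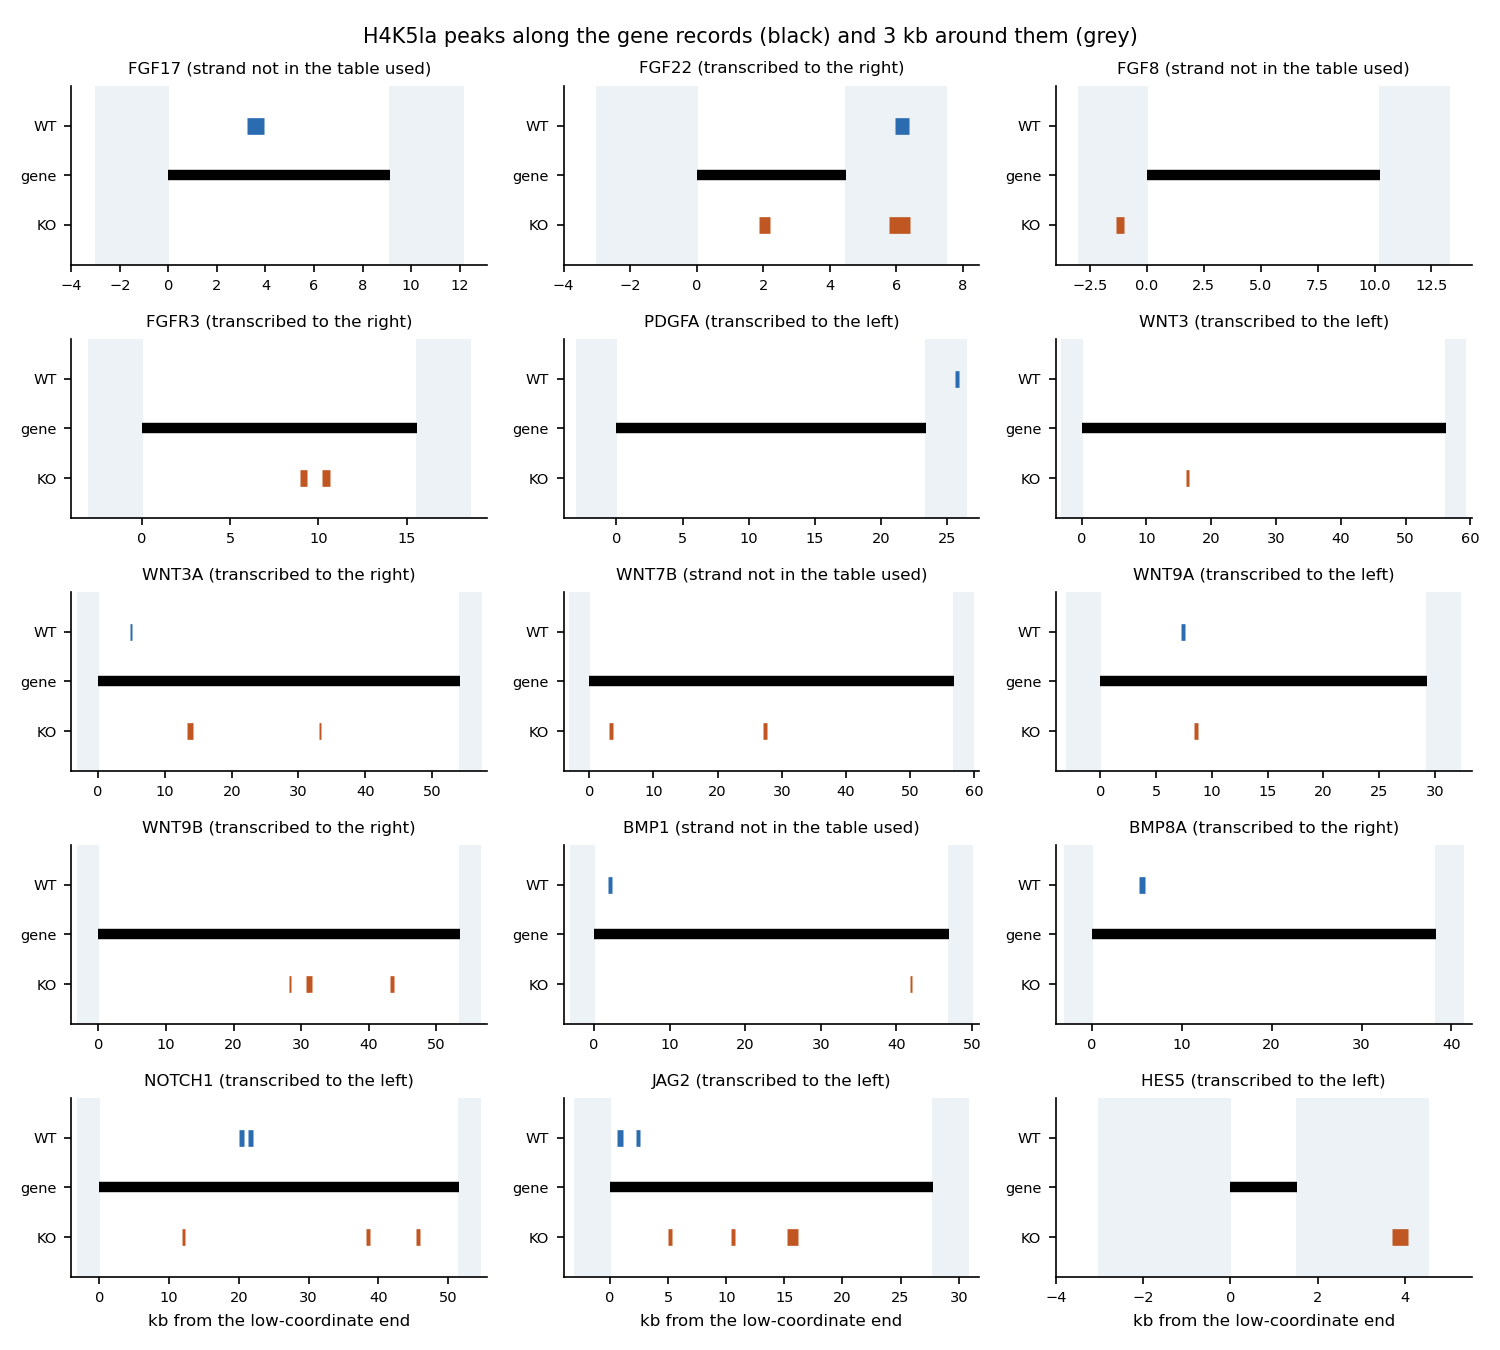
Positions of WT (upper row, blue) and DNAJC12KO (lower row, orange, written KO) peaks along the 15 marked gene records (black bar) and the 3 kb on either side (grey), in kb from the low-coordinate end. Only at FGF22 do a WT and a DNAJC12KO peak share bases; at NOTCH1 and JAG2 the 2 WT peaks and 3 DNAJC12KO peaks lie apart.

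Among the ligands of the FGF family, 3 of 22 genes were marked (13.6%, beside 11.8% of all protein-coding genes). FGF22, an organizer of presynaptic terminals, was the only signalling gene at which peaks of both lists overlapped. Its WT peak (645837 to 646254 on chromosome 19, fold 4.57, -log10 q 2.13) lay 1464 bp beyond the 3′ end of the record (639879 to 644373), within the DNAJC12KO peak at 645673 to 646291 (fold 3.60). No other annotated gene overlapped these peaks. A second DNAJC12KO peak, at 641745 to 642088 (fold 4.27, -log10 q 1.93), lay inside the gene, 1.87 kb downstream of its start. The overlapping DNAJC12KO peak ranked 1974th by -log10 q in its list, so the overlap was lost when both lists were held to the same length. Overlapping peaks thus occurred at 1 of the 6 signalling genes marked in both lists (16.7%), beside 132 of all 585 protein-coding genes marked in both (22.6%).

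FGF17 and FGF8, related ligands of the midbrain-hindbrain organizer, were marked in opposite lists. FGF17 (chromosome 8, 22039672 to 22048809) held a WT peak at 22042895 to 22043596 (fold 4.27), and the nearest DNAJC12KO peak was 49.0 kb from the gene. At FGF8 (chromosome 10, 101770109 to 101780369), a DNAJC12KO peak at 101768735 to 101769097 (fold 3.51) lay 1012 bp outside the record, within the non-coding RNA gene LOC105378457. The nearest WT peak was 57.9 kb from FGF8. The FGF8 peak ranked 2205th by -log10 q in its list and was likewise lost with lists of the same length. The other 19 FGF genes, among them the mitogens FGF1 and FGF2, had no peak.

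FGFR3 was the 1 marked FGF receptor of 4 (25%, beside 11.8% of all protein-coding genes). Of the DNAJC12KO peaks at signalling genes, the highest-ranked was at FGFR3. It encodes a receptor tyrosine kinase known for its activating changes in skeletal dysplasia and bladder cancer. Inside the record (chromosome 4, 1793293 to 1808867) lay DNAJC12KO peaks at 1802256 to 1802662 (fold 4.81, -log10 q 2.59, rank 33 of 2743) and at 1803512 to 1803958 (fold 3.86). They were 8.96 and 10.2 kb downstream of the start. The WT list had no peak within 100 kb of FGFR3, where the DNAJC12KO list had 6, and the nearest WT peak was 155 kb away.

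PDGFA, a growth factor for mesenchymal and glial precursor cells, carried the highest-ranked WT peak of the signalling genes. The peak, at 522886 to 523164 on chromosome 7 (fold 4.67, -log10 q 2.89, rank 15 of 1937), lay 2186 bp upstream of the outermost listed start of PDGFA (record 497258 to 520700). It overlapped the divergent non-coding gene PDGFA-DT and LOC105379749. The surroundings were crowded in both lists, with 11 WT and 14 DNAJC12KO peaks within 100 kb of PDGFA. The DNAJC12KO peak nearest to the record lay 4.05 kb from its other end, just outside the window used. From the WT peak itself, the nearest DNAJC12KO peak was 14.4 kb away. PDGFB, PDGFC, PDGFD and both PDGF receptors had no peak.

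WNT ligands were the family with the most marked genes, and 5 of the 19 lay in the DNAJC12KO list (26.3%, beside 8.23% of all genes), while 2 lay in the WT list (10.5%, beside 6.46%). The DNAJC12KO list held 9 peaks at WNT3, WNT3A, WNT7B, WNT9A and WNT9B, while the shorter WT list held 2, at WNT3A and WNT9A. WNT3 and WNT9B are neighbours, as are WNT3A and WNT9A, so the 5 genes are not independent. The family was singled out by its count, and its share was not tested. The counts were the same with lists of equal length. None of these peaks reached a fold of 4, and only the DNAJC12KO peak of WNT9A reached a -log10 q of 2. Leaving out chromosomes 7 and 17 left 2 WT and 5 DNAJC12KO peaks.

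WNT3A and WNT9A lie 59.1 kb apart on chromosome 1. At WNT9A (227918656 to 227947932), the WT peak at 227925864 to 227926215 (fold 3.70) and the DNAJC12KO peak at 227927090 to 227927425 (fold 3.93, -log10 q 2.04) were separated by 0.875 kb. At WNT3A (228006998 to 228061271), a classical activator of beta-catenin signalling, the WT peak lay 4.73 kb downstream of the start (228011730 to 228012038, fold 3.27). The DNAJC12KO peaks of WNT3A lay further into the gene, 13.4 and 33.0 kb from the start (folds 3.66 and 3.53).

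WNT3 and WNT9B lie 14.5 kb apart on chromosome 17 and were marked in the DNAJC12KO list alone. WNT9B (46833189 to 46886738), known for its part in kidney and face development, had peaks at 46861465 to 46861757 (fold 3.63), 46863926 to 46864752 (fold 3.99, -log10 q 1.95) and 46876321 to 46876914 (fold 3.74). WNT3 (46762506 to 46818692) had 1 peak at 46778579 to 46779039 (fold 3.67), far from its start at 39.7 kb. All of these peaks also fall within the long RefSeq record of LRRC37A2, a gene of a duplicated family. The nearest WT peak was 90.0 kb from WNT9B and 158 kb from WNT3.

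WNT7B, a ligand active in neurite growth and lung development, held DNAJC12KO peaks at 45923378 to 45924042 and 45947433 to 45948026 on chromosome 22 (folds 3.70 and 3.61). The nearest WT peak was 120 kb from the gene. The other 14 WNT genes had no peak, and neither had any of the 10 Frizzled receptor genes, where 11.8% of all protein-coding genes were marked. Closest to the limit of the window were PDGFA and HES5 inside it (2186 and 2188 bp from the record). Just outside it came the DNAJC12KO peak of PDGFA (4.05 kb), FGF3 with a DNAJC12KO peak at 4.37 kb, WNT11 with a WT peak at 4.56 kb and FZD9 with a DNAJC12KO peak at 8.09 kb.

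Of the 12 genes with a BMP symbol, BMP1 and BMP8A were marked (16.7%, beside 11.8% of all protein-coding genes). The first of them is not a BMP ligand. BMP1, the procollagen C-proteinase (chromosome 8, 22165372 to 22212326), had a WT peak at 22167281 to 22167751 (fold 4.18) and a DNAJC12KO peak at 22207183 to 22207475 (fold 3.79). These sat near opposite ends of the record, 39.4 kb apart. BMP8A (chromosome 1, 39491636 to 39529869) had a WT peak at 39496846 to 39497521 (fold 4.37, -log10 q 1.88), and the nearest DNAJC12KO peak was 400.5 kb away. BMP2, BMP4 and BMP7, ligands that act in the dorsal neural tube and crest, and the 3 TGF-beta ligand genes had no peak.

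Notch signalling was marked at 1 of 4 receptors, 1 of 5 ligands and 1 of 7 HES genes, beside 11.8% of all protein-coding genes. NOTCH1 (chromosome 9, 136494433 to 136546048) had WT peaks at 136514517 to 136515130 (fold 4.46, -log10 q 2.04) and 136515768 to 136516474 (fold 3.98). Its DNAJC12KO peaks lay at 136506303 to 136506679 (fold 3.73), 136532633 to 136533227 (fold 3.67) and 136539845 to 136540390 (fold 4.04). The DNAJC12KO peaks thus lay on both sides of the WT pair, the nearest of them 7.84 kb from it. NOTCH2, NOTCH3 and NOTCH4 had no peak.

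JAG2, a transmembrane ligand of Notch receptors, repeated that picture of 2 WT and 3 DNAJC12KO peaks without overlap (chromosome 14, 105140995 to 105168776, minus strand). The WT peaks, at 105141611 to 105142070 (fold 3.58) and 105143228 to 105143602 (fold 4.65, -log10 q 2.22), lay in the last part of the gene, 26.7 and 25.2 kb from its start. The DNAJC12KO peaks lay closer to the start, at 22.5, 17.1 and 11.6 kb from it (folds 3.66, 4.15 and 3.83). The peak at 22.5 kb ranked 2094th by -log10 q in its list. It was lost with lists of the same length, which left 2 WT and 2 DNAJC12KO peaks. JAG1, DLL1, DLL3 and DLL4 had no peak.

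HES5, a transcriptional repressor that Notch induces in neural progenitors, was the only marked HES gene of 7 (14.3%, beside 11.8% of all protein-coding genes). Its DNAJC12KO peak (2532451 to 2532806 on chromosome 1, fold 3.42, -log10 q 1.47) lay 2188 bp upstream of the start, outside any annotated gene, and was the weakest by fold of the DNAJC12KO peaks at signalling genes. The nearest WT peak was 15.5 kb from HES5, and within 100 kb the lists had 9 WT and 8 DNAJC12KO peaks. In the HES5 sequence shown above, the RBPJ motif GTGGGAA occurred on the strand of the gene at 81 to 75 bases before the start, and as TTCCCAC, its reverse complement, at 224 to 218 bases before it. The motif contains no CG. On either strand, HES1, HES4 and HES5 of the 7 HES genes had it in this window, compared with 7.46% of the 67 signalling genes and 7.02% of the 15843 protein-coding genes with a window. HES1 and HES4 had no peak.

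Several marked genes lay near the end of a chromosome arm. Of 9 signalling genes less than 3 Mb from the first or last gene record of their chromosome, 6 were marked (66.7%): FGF22, FGFR3, PDGFA, NOTCH1, JAG2 and HES5. Over all 1946 protein-coding genes that close to a chromosome end, 32.8% were marked. WNT5B, DLL1 and HES4 were the unmarked ones. From 3 to 10 Mb 1 of 16 signalling genes was marked (6.25%, all genes 17.2%), from 10 to 30 Mb 4 of 20 (20%, all genes 9.64%), and beyond 30 Mb 4 of 47 (8.51%, all genes 7.42%). These classes were chosen after the positions were seen, and the numbers are descriptions.

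**Figure D4:**
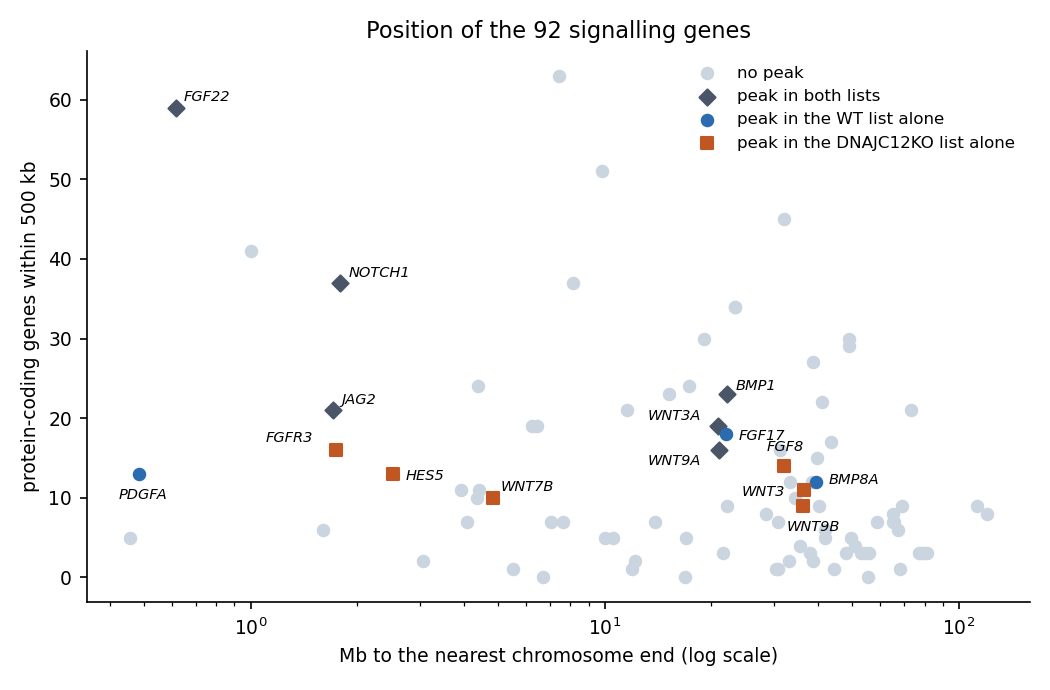
Distance of each of the 92 signalling genes to the first or last gene record of its chromosome (horizontal axis, Mb, log scale) and number of other protein-coding genes within 500 kb (vertical axis). Of the 9 genes below 3 Mb 6 carry a peak, and no gene with fewer than 5 neighbours does.

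Marked genes also had many neighbours. None of the 25 signalling genes with fewer than 5 other protein-coding genes within 500 kb was marked, where 4.87% of all such genes were. With the limit of 3 counts for a count of 0, these 25 genes are too few to be set apart from that share. With 5 to 9 neighbours 1 of 25 was marked (4.00%, all genes 6.89%), with 10 to 19 it was 10 of 21 (47.6%, all genes 13.6%), and with 20 or more 4 of 21 (19.0%, all genes 17.9%). The median number of neighbours was 16 for marked and 7 for unmarked signalling genes, beside 18 and 11 for all protein-coding genes.

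The longest signalling genes were unmarked. Marked signalling genes had a median length of 29.3 kb (range 1.52 to 56.8 kb) and unmarked ones of 21.6 kb. All 11 signalling genes of 100 kb or more, such as FGF12, FGF13 and FGF14, lacked a peak in both lists, while 13.1% of all genes of that length were marked. With the limit of 3 counts for a count of 0, these 11 genes are too few to be set apart from that share.

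**Figure D5:**
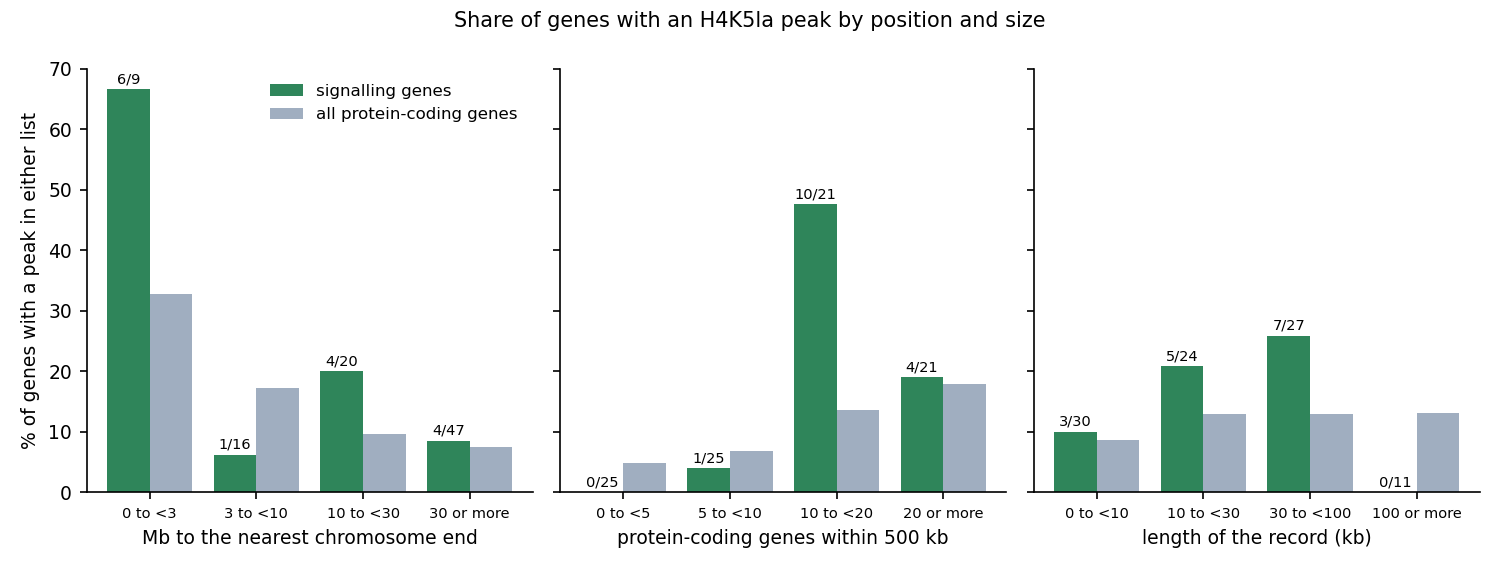
Percentage of genes with a peak in either list (vertical axis) by distance to the chromosome end, by number of protein-coding genes within 500 kb and by length of the record, for the 92 signalling genes (green, with counts above the bars) and all protein-coding genes (grey). The tallest bars are the signalling genes less than 3 Mb from a chromosome end (66.7%) and those with 10 to 19 neighbours (47.6%).

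Other components of the same pathways, 152 genes in 4 lists, were marked at a share close to that of all genes: 13 in the WT list (8.55%, interval 4.63 to 14.2%) and 12 in the DNAJC12KO list (7.89%, interval 4.15 to 13.4%), with 5 in both (3.29%). All protein-coding genes had shares of 6.46%, 8.23% and 2.92%. The WNT pathway list had 7 of 51 genes marked by WT peaks (13.7%) and 3 by DNAJC12KO peaks (5.88%), and the BMP and TGF-beta list had 1 of 41 (2.44%) and 6 (14.6%). The Notch list had 3 of 34 (8.82%) and 2 (5.88%), and the FGF and PDGF list 2 of 26 (7.69%) and 1 (3.85%). Marked in both lists were FGFRL1 (an FGF receptor without a kinase domain), DVL1 (a relay of the WNT signal inside the cell), AXIN1 (a scaffold of the complex that degrades beta-catenin), LTBP2 (a latent TGF-beta binding protein family member) and RFNG (a Fringe glycosyltransferase of Notch). WT and DNAJC12KO peaks overlapped at 0 of these 5 genes, beside the 22.6% of all genes marked in both lists given above.

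By -log10 q, the highest-ranked WT peaks of these lists were at LFNG, another Fringe gene (fold 3.98, -log10 q 1.95), AXIN1 (fold 4.18, -log10 q 1.71) and RFNG (fold 3.77, -log10 q 1.70). The highest-ranked DNAJC12KO peaks were at MIB2, a ubiquitin ligase for Notch ligands (fold 4.48, -log10 q 2.18), DVL1 (fold 4.11, -log10 q 1.77) and SKI, a SMAD repressor (fold 4.09, -log10 q 1.75). Of the 6 BMP and TGF-beta genes of the DNAJC12KO list, LTBP2, LTBP3 and LTBP4 bind latent TGF-beta or belong to that family, and CHRD and FSTL3 are extracellular antagonists. CHRD, FSTL3, LTBP3 and LTBP4 are named here after their values were seen. RFNG peaks lay 0.489 kb apart between the lists (WT fold 3.77, nearest DNAJC12KO fold 2.95). Some of these peaks lay in the flanks. The DVL1 DNAJC12KO peak was 142 bp outside the record, over TAS1R3, and the FSTL3 peak 1798 bp outside, over PRSS57. The stronger AXIN1 DNAJC12KO peak was 2808 bp outside, over PDIA2 and LOC112268376. The CHRD peak was 620 bp and the RFNG WT peak 83 bp outside the record.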

How the data were processed

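The peak caller was MACS2 2.2.6 on hg38, per the submitters' processing notes. Not given in the sources used here are the aligner, filters, calling options, control library and any spike-in scaling. The authors called peaks per library, and each list was taken as that of the immunoprecipitated library, although the input's description names it too. The deposited values per peak are a fold enrichment (a linear ratio over background) and the authors' -log10 p and -log10 q, averaged over a broad peak. Peaks on unplaced sequences (6 WT, 12 DNAJC12KO) were left out. Columns of other samples numbered 0.

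Gene records, and promoter windows with strand, came from RefSeq tables of GRCh38.p14. Promoter windows matched 67 of the 92 genes, and no genome sequence was used. Coordinates are 1-based. Overlaps, shares and exact (Clopper-Pearson) 95% intervals were computed in Python 3.11.15 with numpy 2.4.6, pandas 2.3.3 and scipy 1.17.1, and plots with matplotlib 3.10.9. The overlap count was tested on simulated data against bedtools 2.31.1. With 1 library per genotype no test was made. Members, lists and alternatives were chosen with earlier results of these data known. Every signalling gene with a peak is named. Of the other pathway genes, those with a peak in both lists and the 3 with the highest -log10 q in each list are named, and CHRD, FSTL3, LTBP3 and LTBP4 were added after their values were seen. Chromosome ends, gene density, length classes, base composition and the RBPJ motif were added after the data were seen. The limit for a count of 0 is 3 counts.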

Additional observations from a re-analysis of the deposited data

How the results depend on the processing

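The 7 alternatives were run for 5 counts: the signalling genes marked in the WT list, in the DNAJC12KO list and in both, and the peaks of each list at these genes. Of the 35 resulting values, 26 stayed within 1.5 times the reported count. The others came from stricter peaks, which leave fewer peaks in both lists. With a -log10 q of at least 2, the genes marked numbered 4 (WT), 2 (DNAJC12KO) and 0 (both), with 4 WT and 2 DNAJC12KO peaks. With a fold of at least 4, there were 4 genes in the DNAJC12KO list and 3 in both, with 7 WT and 4 DNAJC12KO peaks. Under these settings the WT list had the more marked signalling genes, and under the other 5 the DNAJC12KO list had. Over all protein-coding genes, the WT share was also the higher with the fold limit (2.39% and 1.94%) but the lower with the -log10 q limit (0.933% and 1.08%). With lists of equal length, the overlap of WT and DNAJC12KO peaks at FGF22 was lost; the shares of all genes were then 6.46% (WT) and 6.30% (DNAJC12KO). A window of 10 kb added WNT11 in the WT list, and PDGFA, FGF3 and FZD9 in the DNAJC12KO list. No paired analysis was possible because each genotype has 1 immunoprecipitated library. Depth limits the lists to an unknown degree.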
